A study of Homo sapiens with 15 samples.

Results

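The mitosis and kinetochore genes are 48 genes whose products drive entry into mitosis, build the spindle, attach chromosomes to it, condense and separate chromosomes, and divide the cell. They were selected by symbol from the 43388 gene rows of the count tables, all 48 were found, and all 48 passed the filter on low counts. Their RNA was sequenced from A549, a cell line of alveolar epithelial type that came from a lung adenocarcinoma and that the labels give as wild type. Cells were kept for 72 hours in hyperoxia (95% oxygen) or normoxia (21% oxygen), after 24 hours with 1e-05 mM ATRA (all-trans retinoic acid, a vitamin A derivative that binds nuclear receptors), or with its ethanol vehicle. The groups held 2 vehicle libraries and 3 ATRA libraries at each oxygen exposure. A further 2 libraries at each exposure carried labels that named no vehicle and no ATRA, and 1 library with conflicting labels entered no comparison. The labels do not say that libraries of a group came from separate cultures, so p-values measure the spread between these libraries, which may be technical.

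Mitosis begins when cyclin B bound to CDK1 is switched on by CDC25 phosphatases, with PLK1 and the transcription factor FOXM1 acting upstream. Motors and spindle-binding proteins then build a bipolar spindle, and the kinetochore on each centromere holds its microtubules. The spindle checkpoint delays anaphase until attachment is complete, after which CDC20 directs the anaphase-promoting complex (APC/C) to destroy securin and cyclin B. Most of these genes are transcribed in G2 and M phase, so their summed RNA is commonly read as a sign of how many cells in a culture are dividing. In RNA from whole cultures, fewer dividing cells and less of these RNAs per cell cannot be told apart.

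Total counts assigned to genes ranged from 2642377 to 5605072 per library, and 12657 to 20108 genes had a count. The hyperoxia library 1 without a named vehicle stood apart: 19.2% of tested genes had a count of 0 there, against 0.321% to 3.5% in the others, and 13 of the 48 genes were at 0, while none was at 0 in any other library. The keratins KRT7, KRT8 and KRT18, which mark epithelial cells, were at 508 CPM (TMM-normalized counts on a common scale of library size) or more in every library, but 4 of the 6 epithelial markers were lower in hyperoxia with vehicle, and their summed level was 3317 and 3495 CPM there against 7669 and 8567 CPM in normoxia with vehicle. EPCAM was at 0 to 24 counts. Of 8 leukocyte, endothelial and fibroblast markers, CD3E, DCN and VWF were at 0 in all libraries, PTPRC reached at most 1 count, and the summed level was 0 to 5.36 CPM in hyperoxia and 1.56 to 12.9 CPM in normoxia. The part of these markers in the results below was not tested.

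The mitotic genes fell together in hyperoxia. With vehicle, 45 of the 48 were lower in hyperoxia (edgeR quasi-likelihood test, Benjamini-Hochberg adjusted p under 0.05 over 14957 genes), against 8.81% of all genes tested, and none was higher (8.68% of all genes tested were). The fall was at least 2-fold in 41 of them, the median log2 fold change over the 48 genes was -1.95, and that over all genes tested was 0.01. Summed over the 48 genes, expression was 6098 and 5531 CPM in the normoxia vehicle libraries and 1883 and 1583 CPM in the hyperoxia vehicle libraries. Both hyperoxia libraries lay below both normoxia libraries for each of the 48 genes, a separation that 31.8% of all genes tested also showed. The largest falls were those of PLK1 (log2 fold change -3.68) and CCNB1 (-3.54), and the smallest difference was that of BUB3 (-0.22).

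**Figure D1:**
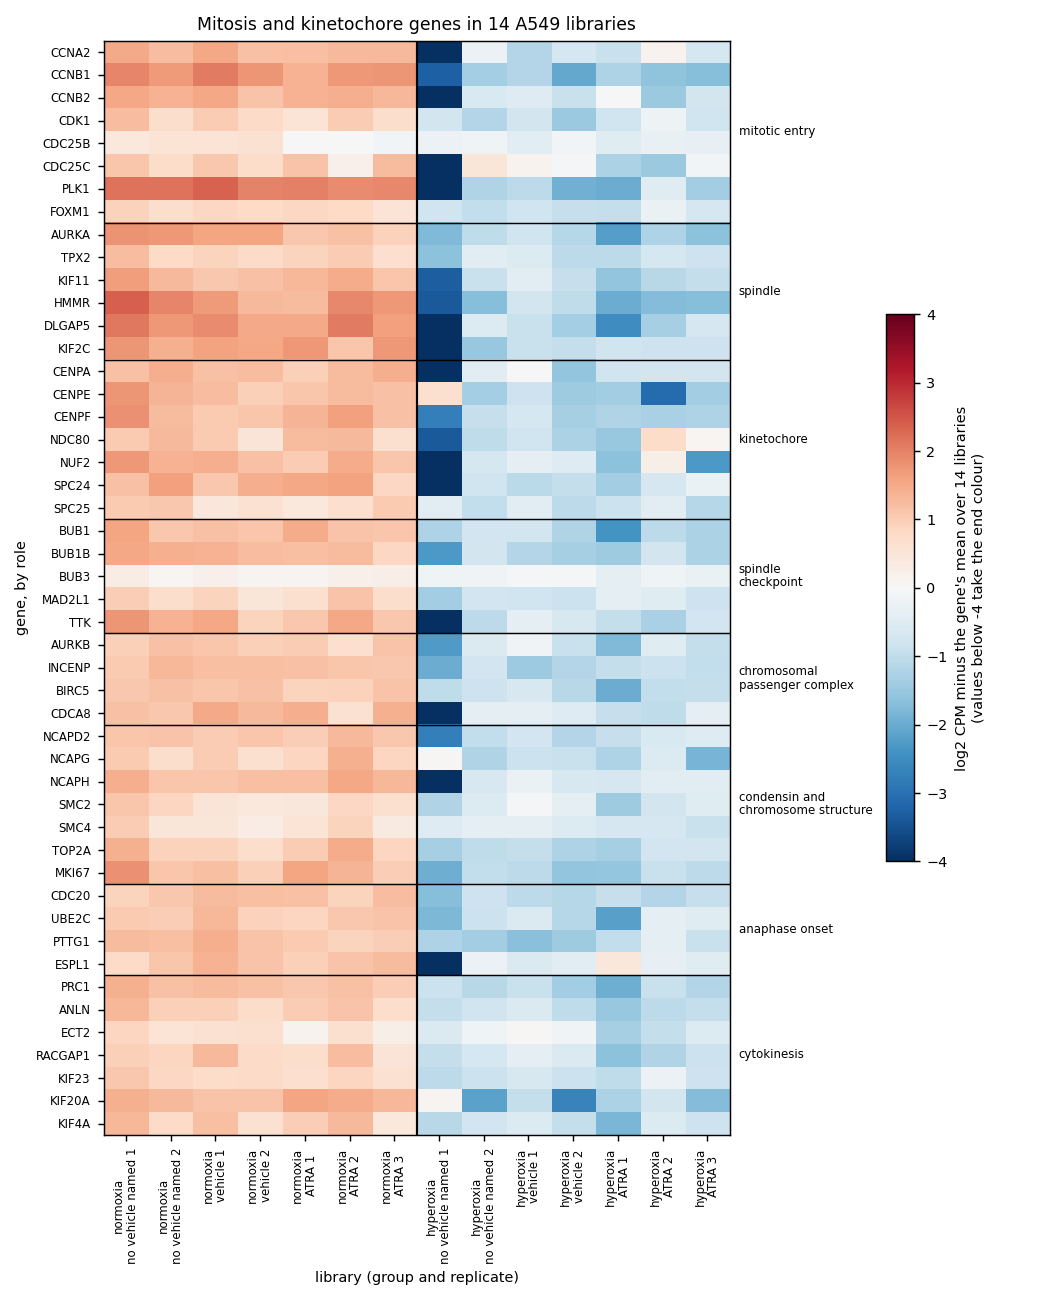
Log2 CPM of each of the 48 genes (rows, by role) in 14 libraries (columns), minus the mean of the gene over the 14 libraries, with 7 normoxia libraries to the left of the vertical line and 7 hyperoxia libraries to the right. Nearly every gene was above its mean on the left and below it on the right, and the first hyperoxia column, the library with 13 of the genes at a count of 0, holds most of the darkest cells.

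The windows before the RefSeq start of several of these genes show what many of them share in sequence and what the window of CDC25B lacks. The cell cycle genes homology region (CHR, searched as TTTGAA or TTCGAA on either strand) is bound by the MuvB complexes, and the CCAAT box (CCAAT on either strand) by NF-Y. Both are known elements of late cell cycle promoters. Below are the 250 bases before the RefSeq start of 6 genes (GRCh38.p14), written in the direction of transcription, with matches to either motif in capitals. PLK1 and CCNB2 act in mitotic entry, CDC20 in anaphase onset, MKI67 on the chromosome surface and PRC1 in cytokinesis, and CDC25B had the highest level per length and a small fall.
PLK1, chr16:23678639-23678888 (plus strand): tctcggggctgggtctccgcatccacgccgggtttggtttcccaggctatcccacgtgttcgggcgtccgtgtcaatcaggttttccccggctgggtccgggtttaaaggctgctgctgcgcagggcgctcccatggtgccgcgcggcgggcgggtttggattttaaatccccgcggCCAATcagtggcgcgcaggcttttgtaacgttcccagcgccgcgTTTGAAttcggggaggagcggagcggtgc
CCNB2, chr15:59104896-59105145 (plus strand): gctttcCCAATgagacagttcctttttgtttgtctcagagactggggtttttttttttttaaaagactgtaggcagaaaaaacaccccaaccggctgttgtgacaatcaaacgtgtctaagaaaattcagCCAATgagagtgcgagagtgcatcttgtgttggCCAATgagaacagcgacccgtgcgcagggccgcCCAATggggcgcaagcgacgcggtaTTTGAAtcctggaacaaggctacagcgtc
CDC20, chr1:43358731-43358980 (plus strand): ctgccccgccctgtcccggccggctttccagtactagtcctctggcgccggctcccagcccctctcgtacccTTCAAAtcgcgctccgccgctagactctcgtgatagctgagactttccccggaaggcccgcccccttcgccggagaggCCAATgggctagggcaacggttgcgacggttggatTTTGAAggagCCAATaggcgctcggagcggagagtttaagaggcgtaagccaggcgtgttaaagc
MKI67, chr10:128126424-128126673 (minus strand): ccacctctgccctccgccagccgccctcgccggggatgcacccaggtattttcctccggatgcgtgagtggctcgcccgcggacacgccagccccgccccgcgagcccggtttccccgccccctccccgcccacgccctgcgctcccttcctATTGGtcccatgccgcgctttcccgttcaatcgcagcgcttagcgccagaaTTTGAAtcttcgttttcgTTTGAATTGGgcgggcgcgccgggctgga
PRC1, chr15:90994536-90994785 (minus strand): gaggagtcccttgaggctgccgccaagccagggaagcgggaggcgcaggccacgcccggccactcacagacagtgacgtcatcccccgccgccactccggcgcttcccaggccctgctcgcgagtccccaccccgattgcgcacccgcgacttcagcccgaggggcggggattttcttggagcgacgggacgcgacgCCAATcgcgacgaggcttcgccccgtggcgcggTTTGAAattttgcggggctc
CDC25B, chr20:3786701-3786950 (plus strand): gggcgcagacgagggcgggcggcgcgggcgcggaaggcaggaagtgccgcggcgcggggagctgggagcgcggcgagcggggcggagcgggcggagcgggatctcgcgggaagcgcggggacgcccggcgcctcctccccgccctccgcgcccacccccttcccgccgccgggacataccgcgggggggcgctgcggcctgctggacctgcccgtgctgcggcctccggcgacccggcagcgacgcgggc

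In PLK1 and CCNB2 the CHR began 29 bases before the start, in PRC1 20 bases before it, and each had a CCAAT box further upstream. CDC25B had neither motif in this window. RefSeq windows of 300 bases (250 before and 50 after the start) were at hand for 40 of the 48 genes. A CHR was found in 29 of the 40 (72.5%), a CCAAT box in 29 (72.5%), both in 22 (55%) and neither in 4 (10%), these being CDC25B, CDC25C, KIF2C and CENPE. Among 10963 promoters of genes tested, the shares were 11.2% for a CHR, 36.3% for a CCAAT box, 4.81% for both and 57.3% for neither. A match of letters is a description and not a bound site, and a CHR spelled in other letters was not searched for. Other starts of the same genes were not searched either, so a gene without a motif here may hold it at another start. For SMC2 and AURKB the 250 bases before the start used lay inside the annotated gene. Among the 40 genes with a window, the median log2 fold change with vehicle was -1.91 over the 29 with a CHR and -2.31 over the 11 without. It was -2.02 over the 22 with both motifs (22 lower) and -1.59 over the 4 with neither (3 lower). Among tested genes outside the 48, 17% of the 505 with both motifs and 7.48% of the 6273 with neither were lower. Within the 40, log2 fold changes with vehicle ran from -3.68 to -0.66 with both motifs and from -2.56 to -0.83 with neither. With a CHR they ran from -3.68 to -0.66, and without one from -3.54 to -0.83. ECT2, with both motifs, had -0.66, and KIF2C, with neither, had -2.56. The ranges overlapped, so the sequences printed above cannot show whether the motifs go with the size of the fall. The differences between motif sets were not tested.

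Among the 8 mitotic entry genes, 7 were lower in hyperoxia with vehicle, with a median log2 fold change of -2.04. CCNB1, which encodes cyclin B1 (chromosome 5, 69167150 to 69178245), stood at 171 and 137 CPM in normoxia and 17.8 and 9.36 CPM in hyperoxia. This was a fall to 8.58% of the normoxia level (log2 fold change -3.54, SE 0.25, edgeR adjusted p = 3.48e-09). CCNB1 with ATRA had 106, 136 and 138 CPM in normoxia and 16.8, 13.01 and 12.0 CPM in hyperoxia, and without a named vehicle it had 156 and 134 CPM and 3.80 and 15.3 CPM. PLK1, the polo-like kinase that promotes CDK1 activation and later steps of mitosis (chromosome 16, 23678889 to 23690367), stood at 222 and 170.1 CPM in normoxia and 20.4 and 10.9 CPM in hyperoxia. PLK1 fell to 7.80% of the normoxia level (log2 fold change -3.68, SE 0.31, edgeR adjusted p = 3.12e-08), and for both genes the hyperoxia libraries lay far below the normoxia libraries. PLK1 with ATRA had 172, 159 and 163 CPM in normoxia and 10.5, 30.2 and 16.1 CPM in hyperoxia, and without a named vehicle it had 194 and 192 CPM and 0 and 18.2 CPM. Cyclin A2 (CCNA2, log2 fold change -2.31), cyclin B2 (CCNB2, -2.09), the kinase CDK1 (-2.0) and FOXM1 (-1.67) fell by smaller amounts.

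The phosphatases that activate CDK1 had log2 fold changes nearer 0 than the cyclins with vehicle, a difference that was not tested. CDC25B (chromosome 20, 3786951 to 3806115) stood at 337 and 356 CPM in normoxia and 174 and 215 CPM in hyperoxia. Its groups did not overlap and it fell to 56.1% of the normoxia level (log2 fold change -0.83, SE 0.14, edgeR adjusted p = 0.000146). CDC25B with ATRA had 234, 233 and 217 CPM in normoxia and 167, 187 and 186 CPM in hyperoxia, and without a named vehicle it had 309 and 341 CPM and 197 and 205 CPM. CDC25C (chromosome 5, 138285265 to 138338355) stood at 15.6 and 12.4 CPM in normoxia and 7.95 and 7.06 CPM in hyperoxia, and its difference did not pass the test (log2 fold change -0.89, SE 0.50, edgeR adjusted p = 0.257). CDC25C with ATRA had 16.7, 8.43 and 18.2 CPM in normoxia and 2.70, 2.30 and 6.61 CPM in hyperoxia, and without a named vehicle it had 16.2 and 12.5 CPM and 0 and 10.4 CPM. FAM53C, which overlaps CDC25C on the opposite strand and shares 293 exonic bases with it, was higher in hyperoxia (log2 fold change 1.03, edgeR adjusted p = 0.000335), and its counts over 14 libraries came to 714% of those of CDC25C. Its part in the CDC25C value was not tested. Per kilobase of the canonical transcript, CDC25B had the highest level of the 48 genes in normoxia with vehicle, 111.0 ± 4.27 CPM per kb (SD, n = 2), followed by PLK1 at 90.7 ± 16.9 and PTTG1 at 83.6 ± 13.03, and the lowest was NDC80 at 3.83 ± 1.05. In hyperoxia with vehicle CDC25B was again highest, at 62.2 ± 9.27 CPM per kb, and ECT2 was next, at 34.2 ± 3.27. Across the 48 genes, level per length and log2 fold change were weakly related (Spearman rho -0.20, a description across genes that share libraries).

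All 6 spindle genes were lower in hyperoxia with vehicle, and their median log2 fold change of -2.51 was the lowest of the 8 roles. AURKA, the kinase of the spindle poles (chromosome 20, 56369390 to 56392215), stood at 123 and 122 CPM in normoxia and 23.3 and 18.4 CPM in hyperoxia. It fell to 16.9% of the normoxia level (log2 fold change -2.57, SE 0.23, edgeR adjusted p = 8.71e-08). AURKA with ATRA had 87.4, 92.1 and 78.9 CPM in normoxia and 8.47, 17.2 and 12.7 CPM in hyperoxia, and without a named vehicle it had 143 and 136 CPM and 11.8 and 19.9 CPM. TPX2, which activates AURKA on microtubules, had the smallest fall of the group and stood at 216 and 197 CPM in normoxia and 80.1 and 55.6 CPM in hyperoxia (log2 fold change -1.61, SE 0.18, edgeR adjusted p = 1.04e-06). TPX2 with ATRA had 213, 233 and 184 CPM in normoxia and 55.3, 70.4 and 65.4 CPM in hyperoxia, and without a named vehicle it had 275 and 203 CPM and 37.2 and 86.3 CPM. DLGAP5, a microtubule-stabilizing protein (log2 fold change -2.92), the depolymerizing kinesin KIF2C (-2.56), the microtubule-associated HMMR (-2.46) and the plus-end motor KIF11 (-1.79) fell between these or further. HMMR-AS1, opposite HMMR, had counts that came to 30.2% of those of HMMR and did not pass the test (log2 fold change -1.49, edgeR adjusted p = 0.243).

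Of the 7 kinetochore genes, 6 were lower in hyperoxia with vehicle, with a median log2 fold change of -2.03. CENPF, a large protein of the outer kinetochore (chromosome 1, 214603195 to 214664571), stood at 239 and 249.5 CPM in normoxia and 70.2 and 46.1 CPM in hyperoxia. It fell to 23.5% of the normoxia level (log2 fold change -2.09, SE 0.18, edgeR adjusted p = 5.40e-08). CENPF with ATRA had 295, 358 and 261 CPM in normoxia and 49.9, 46.3 and 48.9 CPM in hyperoxia, and without a named vehicle it had 413 and 279 CPM and 16.98 and 61.2 CPM. The 4 subunits of the NDC80 complex, which grips the microtubule end, did not all pass the test. SPC24 fell by 2.42 on the log2 scale, NUF2 by 1.84 and SPC25 by 1.34. NDC80 itself (chromosome 18, 2571557 to 2616635) stood at 9.73 and 6.56 CPM in normoxia and 2.39 and 1.59 CPM in hyperoxia. These came from 28 and 37 counts in normoxia and 9 and 9 counts in hyperoxia, and the difference, although of the size of the others, did not pass the test (log2 fold change -2.03, SE 0.73, edgeR adjusted p = 0.0588). NDC80 with ATRA had 11.5, 11.5 and 7.29 CPM in normoxia and 1.26, 7.65 and 4.72 CPM in hyperoxia, and without a named vehicle it had 9.75 and 11.5 CPM and 0 and 1.95 CPM. SPC25 stood at 17.4 and 19.7 CPM in normoxia and 9.01 and 5.83 CPM in hyperoxia (log2 fold change -1.34, SE 0.39, edgeR adjusted p = 0.0183). SPC25 with ATRA had 17.2, 20.6 and 26.5 CPM in normoxia and 6.67, 9.18 and 5.43 CPM in hyperoxia, and without a named vehicle it had 26.7 and 26.9 CPM and 9.39 and 6.19 CPM. The call of NUF2 was lost without any 1 of the 4 vehicle libraries, with edgeR adjusted p-values from 0.0636 to 0.147, and that of SPC25 without any of 3 of them, with values from 0.0566 to 0.227. CENPA, the centromeric histone (-1.89), and the motor CENPE (-2.28) were also lower. Without hyperoxia vehicle library 2, CENPA had -1.24 and an edgeR adjusted p of 0.103.

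In the spindle checkpoint group 4 of 5 genes were lower, with a median log2 fold change of -1.83. BUB1B, which encodes BUBR1 of the complex that holds CDC20 inactive (chromosome 15, 40161069 to 40221123), stood at 65.3 and 58.5 CPM in normoxia and 10.6 and 9.53 CPM in hyperoxia. It fell to 16.3% of the normoxia level (log2 fold change -2.62, SE 0.27, edgeR adjusted p = 5.23e-07). BUB1B with ATRA had 57.1, 60.2 and 44.2 CPM in normoxia and 8.83, 14.5 and 9.92 CPM in hyperoxia, and without a named vehicle it had 72.9 and 67.2 CPM and 4.59 and 14.7 CPM. BUB3, the partner of BUB1 and BUBR1 (chromosome 10, 123154402 to 123170467), stood at 128 and 119.9 CPM in normoxia and 107 and 106 CPM in hyperoxia. Its groups did not overlap, but the difference was small and did not pass the test (log2 fold change -0.22, SE 0.15, edgeR adjusted p = 0.366), with a 95% confidence interval from -0.52 to 0.09 on the log2 scale. BUB3 with ATRA had 120.2, 129 and 135 CPM in normoxia and 86.7, 100.2 and 93.3 CPM in hyperoxia, and without a named vehicle it had 138 and 118 CPM and 98.3 and 102 CPM. The kinase BUB1 (-2.13), the kinase TTK (-1.83) and MAD2L1 (-1.56), the conformational switch of the checkpoint, were lower.

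The 4 subunits of the chromosomal passenger complex, which corrects attachments and later acts at the midzone, were all lower, with log2 fold changes from -2.51 to -1.53. INCENP, the scaffold (chromosome 11, 62124011 to 62153169), stood at 124 and 125 CPM in normoxia and 19.6 and 23.7 CPM in hyperoxia. It fell to 17.6% of the normoxia level (log2 fold change -2.51, SE 0.18, edgeR adjusted p = 3.48e-09). INCENP with ATRA had 123, 117 and 114 CPM in normoxia and 27.8, 29.8 and 27.2 CPM in hyperoxia, and without a named vehicle it had 113 and 137 CPM and 13.2 and 31.9 CPM. AURKB, the kinase of the complex, fell least and stood at 66.0 and 59.2 CPM in normoxia and 27.6 and 16.2 CPM in hyperoxia (log2 fold change -1.53, SE 0.31, edgeR adjusted p = 0.00116). AURKB with ATRA had 62.1, 49.3 and 68.4 CPM in normoxia and 8.65, 21.8 and 15.6 CPM in hyperoxia, and without a named vehicle it had 59.7 and 69.8 CPM and 5.99 and 20.2 CPM. BIRC5, also called survivin, had a log2 fold change of -2.03 and CDCA8, also called borealin, one of -1.89.

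All 7 genes of condensin and chromosome structure were lower, with a median log2 fold change of -1.73. NCAPD2, a regulatory subunit of condensin I (chromosome 12, 6494102 to 6531955), stood at 256 and 272 CPM in normoxia and 74.0 and 56.0 CPM in hyperoxia. It fell to 24.5% of the normoxia level (log2 fold change -2.03, SE 0.17, edgeR adjusted p = 3.39e-08). NCAPD2 with ATRA had 249.4, 308 and 266 CPM in normoxia and 66.2, 82.6 and 87.4 CPM in hyperoxia, and without a named vehicle it had 270.3 and 276 CPM and 18.6 and 62.9 CPM. The other condensin I subunits NCAPG (-1.73) and NCAPH (-1.65) were close to it. The ATPase subunits SMC2 and SMC4, which condensin I and condensin II share, had log2 fold changes nearer 0, a difference that was not tested. SMC2 (chromosome 9, 104088263 to 104141419) stood at 92.1 and 87.6 CPM in normoxia and 61.5 and 50.3 CPM in hyperoxia (log2 fold change -0.69, SE 0.23, edgeR adjusted p = 0.0381) and SMC4 had a log2 fold change of -0.88. SMC2 with ATRA had 89.5, 116 and 101 CPM in normoxia and 23.6, 38.6 and 45.8 CPM in hyperoxia, and without a named vehicle it had 141 and 118 CPM and 27.6 and 44.3 CPM. The call of SMC2 was lost without any 1 of the 4 vehicle libraries, with edgeR adjusted p-values from 0.0675 to 0.278. TOP2A, which untangles chromosomes, had -1.91 and MKI67, the surface protein known as Ki-67, had -2.40. MKI67 stood at 800.4 and 671 CPM in normoxia and 165 and 115 CPM in hyperoxia, and in all 7 normoxia libraries it had the highest CPM of the 48 genes.

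The 4 genes of anaphase onset were all lower, with a median log2 fold change of -2.19. CDC20, the activator of the APC/C (chromosome 1, 43358981 to 43363203), stood at 109 and 106 CPM in normoxia and 22.0 and 20.5 CPM in hyperoxia. It fell to 19.7% of the normoxia level (log2 fold change -2.34, SE 0.19, edgeR adjusted p = 2.95e-08). CDC20 with ATRA had 103, 85.5 and 107 CPM in normoxia and 23.8, 19.9 and 24.1 CPM in hyperoxia, and without a named vehicle it had 84.8 and 96.7 CPM and 13.6 and 25.7 CPM. PTTG1, which encodes securin (-2.90), fell further, and the ubiquitin-conjugating enzyme UBE2C had -2.03. ESPL1, which encodes separase, the protease that securin holds back (chromosome 12, 53268299 to 53293638), had the smallest fall and stood at 84.8 and 70.2 CPM in normoxia and 21.2 and 23.3 CPM in hyperoxia (log2 fold change -1.79, SE 0.26, edgeR adjusted p = 3.67e-05). ESPL1 with ATRA had 61.6, 70.8 and 76.8 CPM in normoxia and 43.4, 25.3 and 22.4 CPM in hyperoxia, and without a named vehicle it had 54.2 and 68.6 CPM and 0 and 27.0 CPM.

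All 7 cytokinesis genes were lower, with a median log2 fold change of -1.65. PRC1, which bundles the microtubules of the midzone (chromosome 15, 90966040 to 90994535), stood at 219 and 208 CPM in normoxia and 49.3 and 34.96 CPM in hyperoxia. It fell to 19.5% of the normoxia level (log2 fold change -2.36, SE 0.23, edgeR adjusted p = 2.17e-07). PRC1 with ATRA had 195, 209 and 182 CPM in normoxia and 23.3, 49.4 and 40.4 CPM in hyperoxia, and without a named vehicle it had 246 and 206 CPM and 49.9 and 42.0 CPM. PRC1-AS1, on the opposite strand with 1892 exonic bases in common, was also lower (-2.16, edgeR adjusted p = 0.000172), and its counts came to 30.7% of those of PRC1. ECT2, the exchange factor that activates RhoA for the contractile ring (chromosome 3, 172750726 to 172829265), had the smallest fall and stood at 219.7 and 227 CPM in normoxia and 151 and 132 CPM in hyperoxia (log2 fold change -0.66, SE 0.20, edgeR adjusted p = 0.0213). ECT2 with ATRA had 159.9, 225 and 171 CPM in normoxia and 57.2, 75.4 and 99.4 CPM in hyperoxia, and without a named vehicle it had 261 and 211 CPM and 97.3 and 129 CPM. Its groups did not overlap, but the call was lost without any 1 of the 4 vehicle libraries, with edgeR adjusted p-values from 0.0520 to 0.168. The kinesin KIF20A (-2.84), the chromokinesin KIF4A (-1.69), the ring scaffold ANLN (-1.65), and the centralspindlin pair RACGAP1 (-1.55) and KIF23 (-1.52) fell by amounts between those of KIF20A and ECT2.

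**Figure D2:**
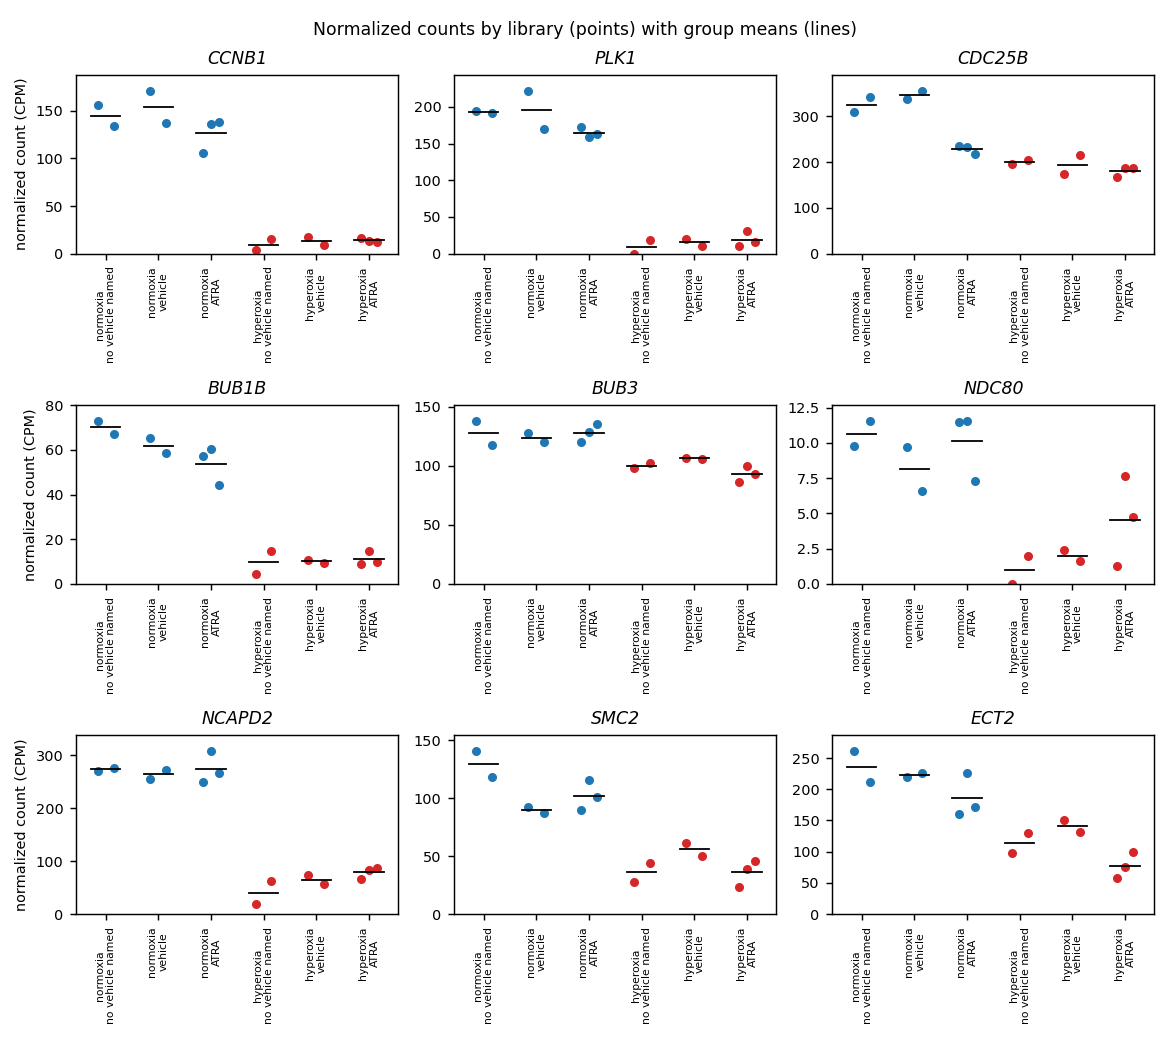
Normalized counts (CPM, linear axes from 0) of 9 genes in each library (points, blue for normoxia and red for hyperoxia) with group means (lines), for 6 groups of 2 or 3 libraries. CCNB1, PLK1, BUB1B and NCAPD2 separated widely by oxygen exposure, BUB3 and CDC25B separated narrowly, and ECT2 was lower with ATRA than with vehicle in hyperoxia.

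Reads of neighbouring genes may enter some of these counts. The libraries were made with a directional kit, but TALAM1, annotated opposite MALAT1, had more counts than MALAT1 in 14 of 14 libraries (6260 to 40547 against 3301 to 21340), and the strand setting of the counting was not given in the sources used here. Genes and their partners on the opposite strand may therefore share reads. A strand setting acts on the counts of every gene, so this limit is not confined to the genes named here. Reads set aside as ambiguous between genes were 0.401% to 0.527% of all counts of a library. Which strand setting was used was not tested. Besides FAM53C, HMMR-AS1 and PRC1-AS1, partners with at least 10% of the counts of the gene were EXOSC9 at CCNA2 (57.4%), ITFG2 (30.9%) and RHNO1 (28.9%) at FOXM1, NOSTRIN at SPC25 (104%), SCARNA10 within NCAPD2 (31.9%), LCORL at NCAPG (71.4%), TRIM59-IFT80 at SMC4 (22.1%) and CDC23 at KIF20A (105.5%). These shares compare whole counts and are not the reads in common, which the count tables do not give. The exons of RHNO1, NOSTRIN and SCARNA10 share 0 bases with those of the gene they overlap. CDC23 had a log2 fold change of -0.01 where KIF20A had -2.84.

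Of 110 other genes of the same processes, in 8 lists, 43 were lower and 2 higher in hyperoxia with vehicle, where 8.81% of all genes tested were lower and 8.68% higher, with a median log2 fold change of -0.65. The list of other spindle genes came closest to the 48, with 16 of 19 lower and a median of -2.0. NUSAP1, a microtubule bundler, stood at 64.6 and 70.2 CPM in normoxia and 15.4 and 11.3 CPM in hyperoxia (log2 fold change -2.36), and ASPM, of the spindle poles, had -2.43. Of 9 other cytokinesis genes, 7 were lower, among them the kinesin KIF14 (-2.55) and citron kinase CIT (-1.58). MYH9, the heavy chain of nonmuscle myosin IIA, was instead higher and stood at 740.3 and 752 CPM in normoxia and 1277 and 1258 CPM in hyperoxia (log2 fold change 0.76, SE 0.14, edgeR adjusted p = 0.000481).

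Of 22 kinetochore and centromere genes outside the 48, 6 were lower, including CENPI of the inner kinetochore (-2.07) and ZWINT of the outer kinetochore (-1.06), and the median was -0.74. Of 10 other genes of the checkpoint and of centromere protection, 4 were lower, including TRIP13, which remodels MAD2 (-1.50), and SGO2, a shugoshin (-2.07). Of 13 genes of condensin II and cohesin, 4 were lower, including the condensin II subunit NCAPG2 (-1.40) and the cohesin subunit RAD21 (-0.95), with a median of -0.21.

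Of 17 APC/C subunits and regulators, 2 were lower, near the share of all genes tested. They were the ubiquitin-conjugating enzyme UBE2S (-1.18) and the core subunit ANAPC2 (-0.87), and the median was -0.20. Of 9 other genes of mitotic entry, CDCA3, a trigger of WEE1 loss (-3.21), and CCNF, which encodes cyclin F (-1.89), were lower, and ENSA, an inhibitor of PP2A-B55, was higher (0.49, edgeR adjusted p = 0.0354). Of 11 genes of the DREAM and MuvB complexes, MYBL2, the B-MYB factor (-1.29), and TFDP1, the partner of E2F factors (-0.66), were lower.

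**Figure D3:**
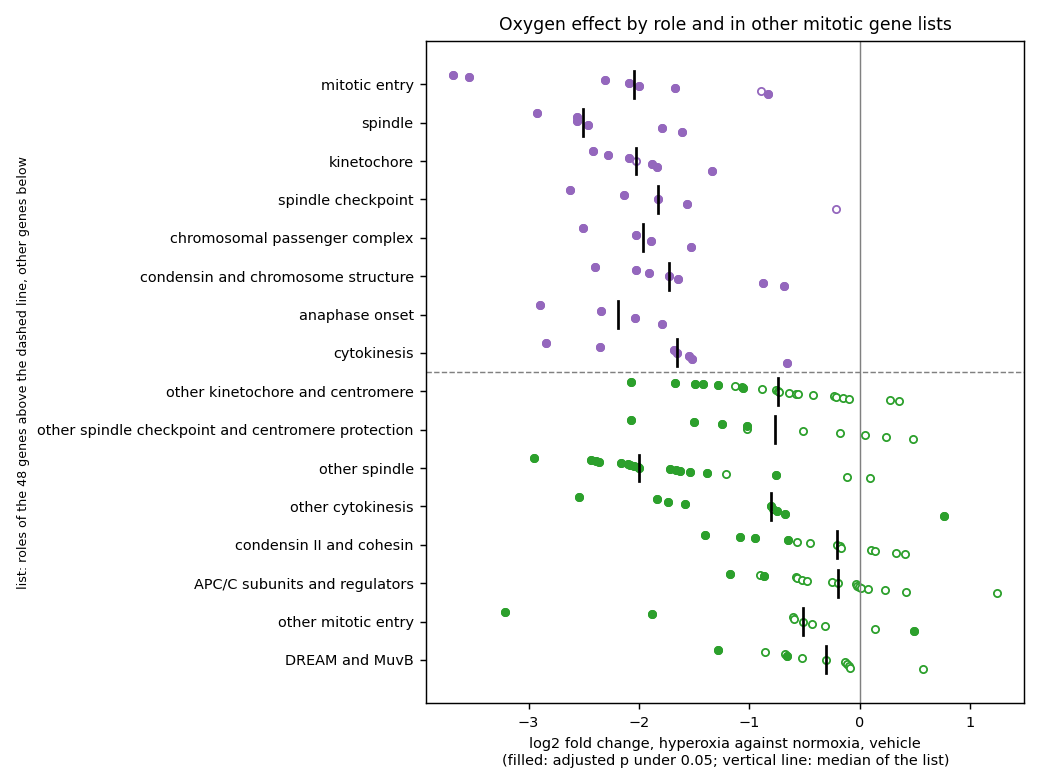
Log2 fold change between hyperoxia and normoxia with vehicle for each gene (points) in the 8 roles of the 48 genes (above the dashed line) and in 8 lists of 110 other mitotic genes (below it), filled where the edgeR adjusted p was under 0.05, with a vertical line at the median of each list. The medians of the 8 roles lay between -2.51 and -1.65, and those of the other lists between -2.0 and -0.20.

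The same question was asked of libraries that share none with the vehicle comparison. With ATRA, 47 of the 48 genes were lower in hyperoxia (11.3% of all genes tested), the median log2 fold change was -2.06, and 47 had all 3 hyperoxia libraries below all 3 normoxia libraries (17.2% of all genes tested). CCNB1 (log2 fold change -3.16, SE 0.21) and PLK1 (-3.22, SE 0.25) again had low levels in hyperoxia, 11.2% and 10.7% of those in normoxia, and HMMR had the largest fall (-3.66, SE 0.30).

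The exception with ATRA was NDC80, where 1 hyperoxia library lay within the normoxia range (log2 fold change -1.22, SE 0.56, edgeR adjusted p = 0.128). Without that library, hyperoxia ATRA library 2, it had -1.81 and an edgeR adjusted p of 0.0375. CDC25C was called here (-1.87, SE 0.44, edgeR adjusted p = 0.00330), with a value between those of the cyclins CCNA2 (-1.75) and CCNB2 (-1.98), as was BUB3 (-0.46, SE 0.12, edgeR adjusted p = 0.00832). The call of CDC25C was lost in the fit of all 14 libraries (-1.88, edgeR adjusted p = 0.172). CDC25B had the smallest fall (-0.35, SE 0.11, edgeR adjusted p = 0.0305), a call lost without hyperoxia ATRA library 1, normoxia ATRA library 1 or normoxia ATRA library 2, with edgeR adjusted p-values from 0.0592 to 0.0918.

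In the libraries without a named vehicle, 45 of the 48 genes were lower in hyperoxia (7.58% of 15339 genes tested in the fit of all 14 libraries), with a median log2 fold change of -2.36 where that of all genes was -0.10. Each of the 48 had both hyperoxia libraries below both normoxia libraries, as had 30.1% of all genes tested. The median of -2.36 rests in part on hyperoxia library 1. There 13 of the genes were at 0, including CCNA2, CCNB2, PLK1, KIF2C, NDC80 and ESPL1. A count of 0 at this depth allows up to 3 counts. Other members were not low there: CENPE stood at 31.0 CPM (155 counts) where the other 6 hyperoxia libraries lay between 1.91 and 10.9 CPM, and SPC25, NCAPG, PRC1 and KIF20A were also above the range of those 6. Without that library 45 genes were lower and the median was -2.11. Without hyperoxia library 2 it was -3.12. When only these 4 libraries were fitted, 6 genes were called and the median was -2.34.

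Of all genes tested, 8.81% were lower in hyperoxia with vehicle, 11.3% with ATRA and 7.58% without a named vehicle. The share of all genes that were lower in all 3 was not computed. Over the 3 oxygen comparisons, 44 of the 48 genes were called lower in each. The exceptions were CDC25C and BUB3, called with ATRA alone, NDC80, called without a named vehicle alone, and ESPL1, called with vehicle and with ATRA. That call of NDC80 (edgeR adjusted p = 0.0388) was lost with the replicate block (0.0574), with only the groups compared (0.442) and without any 1 of 11 of the 14 libraries (0.0559 to 0.124). CENPA, among the 44, was likewise not called without a named vehicle under the block (edgeR adjusted p = 0.0560), nor were its calls there kept without any 1 of 9 libraries (0.0520 to 0.125). All 7 hyperoxia libraries lay below all 7 normoxia libraries for 46 of the 48, with CDC25C and NDC80 the exceptions, against 7.31% of all genes tested. Across the 48 genes, the log2 fold change with vehicle and that with ATRA had a Pearson correlation of 0.74, and with vehicle and without a named vehicle one of 0.72, as a description across genes. A test of whether the oxygen effect without a named vehicle differed from that with vehicle called none of the 48 by edgeR, with 5 at an unadjusted p under 0.05, where 4.85% of all genes tested were (KIF11, HMMR, CENPF, TTK and SMC2, each with a difference below 0), and 0.00652% of all genes tested were called. By DESeq2 none was called either. With hyperoxia library 2 left out, the hyperoxia group with no named vehicle holds 1 library, where 19.2% of tested genes were at 0. Calls from that fit are not given.

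**Figure D4:**
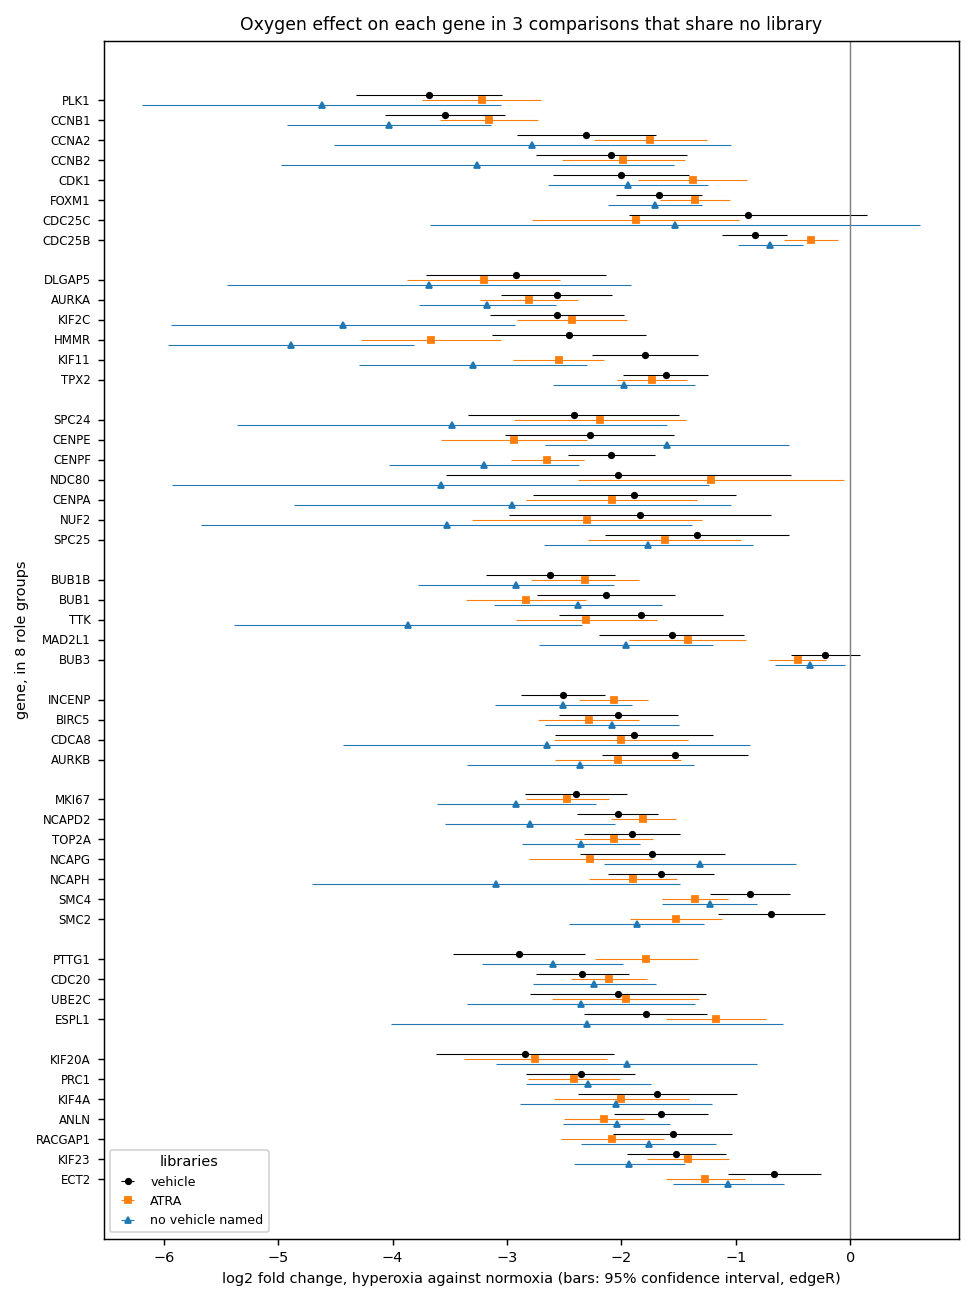
Log2 fold change between hyperoxia and normoxia (points) with its 95% confidence interval (bars, edgeR) for each of the 48 genes in the vehicle, ATRA and no vehicle named libraries, grouped by role. All 3 estimates lay below 0 for each gene, PLK1, CCNB1 and HMMR lay furthest to the left, and intervals without a named vehicle were often wide.

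In hyperoxia, 1 of the 48 was called between ATRA and vehicle, ECT2, and it was lower (0.695% of all genes tested were called lower and 2.21% in either direction). A count of 1 is near the share of all genes tested. In the same comparison 5 of the 6 epithelial markers were higher with ATRA, KRT7 (log2 fold change 0.69), KRT8 (1.01), KRT18 (0.97), KRT19 (0.99) and CDH1 (1.28), and their summed level was 5516 to 7001 CPM with ATRA and 3317 to 3495 CPM with vehicle. Their part in the ECT2 result was not tested. ECT2 stood at 57.2, 75.4 and 99.4 CPM in the 3 ATRA libraries, all below the 151 and 132 CPM of the 2 vehicle libraries. Its log2 fold change was -0.87 (SE 0.18, edgeR adjusted p = 0.0104). The call was lost without hyperoxia vehicle library 1 (-0.78, edgeR adjusted p = 0.189), and against the hyperoxia libraries without a named vehicle the value was -0.55 (edgeR adjusted p = 0.234). The median over the 48 genes was -0.10, with 28 below 0 and 20 above.

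A further 7 genes had an unadjusted p under 0.05 in hyperoxia, as did 13.5% of all genes tested, and did not pass the adjustment by edgeR. HMMR (-1.03), AURKA (-0.75), RACGAP1 (-0.74), SMC2 (-0.65) and KIF11 (-0.56) had values below 0, with adjusted p-values from 0.122 to 0.230. Against the hyperoxia libraries without a named vehicle the sign turned for HMMR (0.71), KIF11 (0.56) and SMC2 (0.00881), and with library 1 of those left out it was again below 0 (-0.14, -0.31 and -0.32). PTTG1 stood at 11.7, 18.0 and 12.5 CPM with ATRA and 7.16 and 8.65 CPM with vehicle (0.78, edgeR adjusted p = 0.166), and INCENP had 0.37 (edgeR adjusted p = 0.353). Groups did not overlap for 10 genes lower with ATRA and 3 higher, against 15.7% and 15% of all genes tested.

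In normoxia, CDC25B was the 1 gene called between ATRA and vehicle (0.435% of all genes tested were called lower and 1.25% in either direction). It stood at 234, 233 and 217 CPM with ATRA and 337 and 356 CPM with vehicle, and the groups did not overlap. The log2 fold change was -0.60 (SE 0.12, edgeR adjusted p = 0.0113). The normoxia libraries without a named vehicle stood at 309 and 341 CPM, and against them the value was -0.51 (edgeR adjusted p = 0.0936). The call was lost without either vehicle library, with edgeR adjusted p-values of 0.104 and 0.224. AURKA had an unadjusted p under 0.05, as had 8.79% of all genes tested, and did not pass the adjustment (-0.51, edgeR adjusted p = 0.340). The median over the 48 genes was 0.03, and 4 genes lay below and 2 above without overlap, against 14.5% and 13.2% of all genes tested.

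MKI67 with ATRA did not differ from vehicle beyond the spread between libraries. It stood at 1033, 876 and 680.0 CPM with ATRA in normoxia and 117, 186 and 166 CPM with ATRA in hyperoxia, where the vehicle libraries had 800.4 and 671 CPM and 165 and 115 CPM. The log2 fold changes were 0.23 in normoxia (95% confidence interval -0.15 to 0.61, edgeR adjusted p = 0.840) and 0.15 in hyperoxia (-0.25 to 0.55, edgeR adjusted p = 0.809). CCNB1 had -0.28 (edgeR adjusted p = 0.790) and 0.11 (edgeR adjusted p = 0.914), and PLK1 had -0.24 (edgeR adjusted p = 0.885) and 0.21 (edgeR adjusted p = 0.839).

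The interaction of oxygen with ATRA asked whether the oxygen effect differed with ATRA. None of the 48 genes was called by edgeR or by DESeq2, with 8 at an unadjusted p under 0.05 (7.21% of all genes tested), and 0.14% of all genes tested were called. PTTG1 had the smallest p (difference of log2 fold changes 1.11, SE 0.35, edgeR adjusted p = 0.361), and CDC25B had a difference of 0.49. HMMR (-1.20), SMC2 (-0.83), KIF11 (-0.75), ECT2 (-0.60), CENPF (-0.56) and SMC4 (-0.48) had differences below 0, and none of the 8 passed the adjusted threshold. None of the 110 other mitotic genes was called in the ATRA comparisons or in the interaction.

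**Figure D5:**
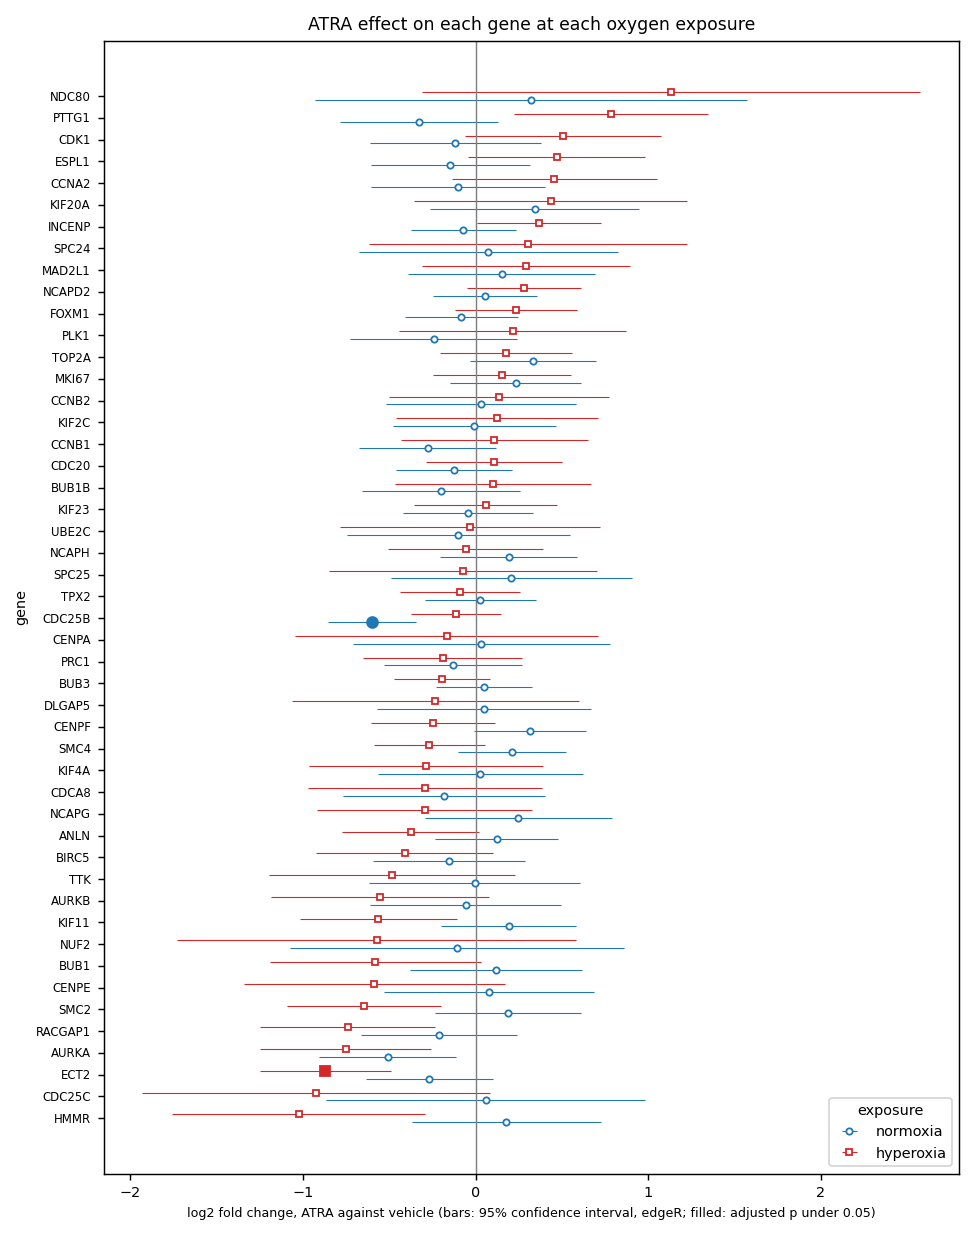
Log2 fold change between ATRA and vehicle (points) with its 95% confidence interval (bars, edgeR) for each of the 48 genes in normoxia and in hyperoxia, ordered by the hyperoxia value, with filled points where the adjusted p was under 0.05. The 2 filled points are ECT2 in hyperoxia at -0.87 and CDC25B in normoxia at -0.60, and most other intervals include 0.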

How the data were processed

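RNA was sequenced from A549 cells with a directional kit. Per the labels and the study's methods, the authors used Trimmomatic 0.38 for trimming, HISAT2 for alignment (hg38) and HTSeq for counting, and deposited raw read counts per gene and library. The annotation and strand setting were not given in the sources used here. From the deposited counts, 5 rows that name no gene were left out. They held 75.2% to 78.4% of all counts of a library, and 48.6% to 55.3% were in the row for no feature. Genes were filtered with filterByExpr (minimum count 10, minimum total 15), scaled by TMM and tested with the quasi-likelihood test of edgeR 4.0.16 (R 4.3.3), two-sided, with Benjamini-Hochberg adjustment over all genes tested (14957 in the fit of the 10 vehicle and ATRA libraries, 15339 in that of 14). A gene was called at an adjusted p under 0.05. Standard errors are the log2 fold change over the root of F, and CPM values are TMM-normalized. The 95% intervals of fold changes come from the same fit and include the spread between libraries, while the limit of 3 counts for a count of 0 covers counting error only. The scripts were tested on simulated data. DESeq2 1.42.0, other filters, scalings, controls and sample sets, a replicate block and leaving out single libraries were the alternatives. Promoters and coordinates came from RefSeq GRCh38.p14, and AURKA, BIRC5, BUB3, FOXM1, RACGAP1, TPX2, TTK and UBE2C had no promoter entry. None of the 10 pairs of libraries within a group differed by as little as sampling noise, and pairs across groups were not compared.

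The 48 genes and the other lists were chosen with earlier results of these data known. Values in every library are given, in each of the 8 roles, for the gene with the smallest p and that with the smallest change with vehicle, for each gene not called there, each gene called in an ATRA comparison and the gene highest per length. From each of the 8 other lists, the 2 called genes with the smallest p and any called gene against the majority are named, and overlapping genes with at least 10% of the counts of the gene.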

Additional observations from a re-analysis of the deposited data

How the results depend on the processing

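The falls in hyperoxia kept their direction for all 48 genes under the alternatives run. With vehicle, 45 genes were lower, 33 to 47 under the alternatives and 40 to 46 without single libraries. With ATRA, 47 were lower, 41 to 47 and 46 to 48. Of the 45 calls with vehicle, 33 held under every alternative. Those lost under at least 1 were CCNA2, CCNB2, CENPA, NUF2, SPC24, SPC25, TTK, CDCA8, NCAPH, SMC2, ESPL1 and ECT2. In the fit of all 14 libraries, edgeR adjusted p-values with vehicle were 0.212 for CENPA, 0.270 for NUF2 and 0.0667 for SPC25. They were 0.142 for SMC2 and 0.0863 for ECT2. Without a named vehicle, 45 were lower, 42 with the replicate block, 41 with DESeq2 and 6 when only the groups compared were fitted, which leaves 4 libraries, and 33 to 47 without single libraries, with medians from -3.12 to -2.11. For ATRA in hyperoxia, 1 gene was lower, 4 with no filter on low counts, and 0 with all 14 libraries, with controls without a named vehicle, and with those controls without hyperoxia library 1, an alternative chosen after seeing the data. Without single libraries 0 to 2 were lower, with medians from -0.33 to 0.14, the latter without hyperoxia vehicle library 1. Against those controls the median was 0.27, and KIF11 (0.56), HMMR (0.71), SMC2 (0.00881) and AURKB (0.24) changed sign. In normoxia 1 gene was lower, 0 with controls without a named vehicle and 0 to 1 without single libraries. The oxygen effect without a named vehicle against that with vehicle called 2 lower with no filter, and 0 to 25 lower and 0 to 1 higher without single libraries, with medians from -1.06 to -0.11. The cause of these changes was not tested.

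The labels pair no libraries, so the replicate block used sets inferred from the library numbers. Of 28 pairs of libraries of the same set, 2 had deviations correlated above 0.1 (median 0.02). Of 53 pairs of different sets, 0 did (median -0.009). In groups of 2 libraries the deviations mirror each other, so these values cannot show whether the libraries of a set share more than a number. With the replicate block, 45 genes were lower with vehicle and 47 with ATRA, and ECT2 (-0.73) and CDC25B (-0.58) kept their ATRA calls. NDC80, with few counts, was called with vehicle by DESeq2 (adjusted p = 0.0389), and by edgeR with no filter (0.0344), with only the groups compared (0.00685), and without hyperoxia ATRA library 1 (0.0124) or 2 (0.0381), which are outside that comparison.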

Other observations

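A library titled as hyperoxia, whose treatment field names another procedure, was placed in no group. Its summed level over the 48 genes was 1587 CPM. For 47 of the 48 genes it lay below all 7 normoxia libraries, and for 45 it lay within the range of the 7 hyperoxia libraries, with 1 gene below that range and 2 above it. Without hyperoxia library 1 of the group with no named vehicle, where 13 of the genes were at 0, it lay within the range of the other 6 for 39 genes, below it for 7 and above it for 2. None of the 48 genes was at 0 in it.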
